A study of Saccharomyces cerevisiae with 12 samples.

Results

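The 5 genes described here, MF(ALPHA)1, MF(ALPHA)2, STE3, SAG1 and AFB1, are the α-specific genes of Saccharomyces cerevisiae, the genes that haploid cells of the α mating type express and that a cells normally keep off. They were chosen by name, and each has 1 probe set on the array, so that 5 of the 5498 probe sets annotated with a single S. cerevisiae gene are theirs. Expression was measured in 4 groups of 3 arrays: H2B R95A with rapamycin, H2B R95A untreated, H2B WT with rapamycin and H2B WT untreated. Rapamycin, which blocks TOR kinase signalling and so mimics a lack of nutrients, was given at 200 ng/ml for 30 min to cultures in exponential growth. In H2B R95A, alanine stands in place of arginine 95 of histone H2B, a change that a transcript level cannot check. Per the study's methods both strains come from a histone mutant collection built in FY406, a MATa strain in which both endogenous gene pairs of H2A and H2B are deleted, (hta1-htb1)Δ::LEU2 and (hta2-htb2)Δ::TRP1, and the histones are supplied from a plasmid. By that genotype all 4 groups carry the same deletions and come from a parent of the a mating type, whereas the 5 genes mark the α mating type. The study reports that the pheromone α-factor arrested H2B WT cells in the G1 phase of the cell cycle and did not arrest H2B R95A cells. The mating type of the cultures on these arrays was not tested here.

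Mating in budding yeast runs on a pair of pheromones. An α cell secretes α-factor, senses a-factor with its own receptor and carries its own agglutinin, while an a cell has the reciprocal set. The MAT locus decides which set is used: the α1 protein with Mcm1 activates the α-specific genes, the α2 protein with Mcm1 represses the a-specific genes, and in diploid cells a1 with α2 represses the haploid-specific genes. The genes for α1 and α2 also lie, silenced, at HML. Among the 5 genes MF(ALPHA)1 and MF(ALPHA)2 encode the precursors of α-factor, STE3 the receptor for a-factor, SAG1 the cell wall α-agglutinin, and AFB1 a secreted protein that acts as a barrier to a-factor.

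Values are log2 signals after RMA, a method that corrects the background, normalizes by quantiles and summarises each probe set. A single limma fit of all 12 arrays gave the log2 fold changes with their standard errors (SE), and a gene passed the test where its p, adjusted by Benjamini-Hochberg over the 5498 probe sets, was under 0.05. The labels do not say that the 3 arrays of a group came from separate cultures, so p-values measure only the spread between arrays, and an exact permutation test of 3 against 3 cannot give a p under 0.1. The number of arrays limits the precision. The replicate 1 arrays stood apart from the others: they held 49.3% of the squared deviations from the group means over all tested probe sets, and the replicate number accounted for 65.7% of them. For single genes that share was 55.9% for STE3, 40.4% for MF(ALPHA)1, 23.9% for SAG1, 22.2% for MF(ALPHA)2 and 11.3% for AFB1, and the results below are also given without those 4 arrays, an alternative chosen after seeing the data.

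The α-specific genes were dim on these arrays. Against the 1746 probe sets for Schizosaccharomyces pombe transcripts, which have no target in these cells, all 5 genes lay above the 95th percentile (1.35 to 1.56 over the arrays) on 12 of 12 arrays. At the 99th percentile (1.76 to 2.16) MF(ALPHA)1 was above the limit on 10 of 12 arrays and the other 4 genes on all 12. Against the 3517 probe sets with no listed gene, whose 95th percentile lay between 5.52 and 6.08, SAG1 alone was above the limit on 12 arrays, AFB1 was above it on 1 and the other 3 genes on none. The a-factor gene MFA2, a marker of a cells, had signals of 4.81 to 5.90 over the 6 H2B R95A arrays, against 10.23 to 11.23 over the 6 H2B WT arrays, so that this marker of the parent strain's mating type was bright in H2B WT and dim in H2B R95A. A signal of a bulk culture cannot tell fewer expressing cells from less RNA per cell.

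**Figure D1:**
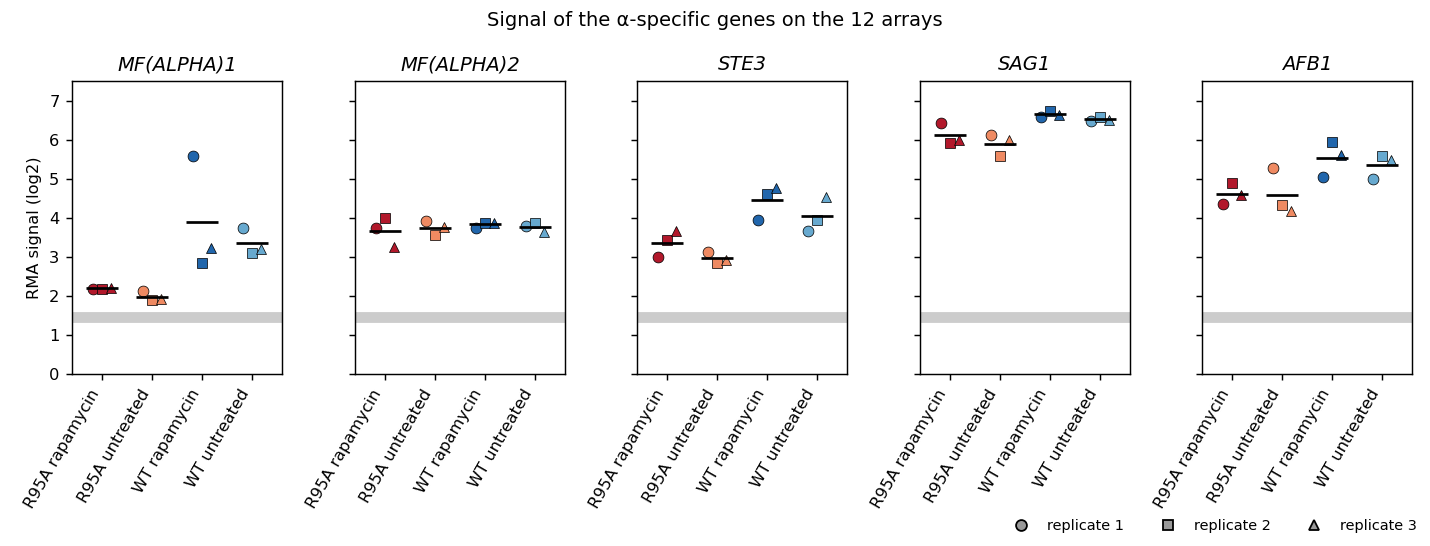
RMA log2 signal (y axis) of the 5 α-specific genes on each of the 12 arrays, by group (x axis), with the bar at the group mean of 3 arrays and the symbol giving the replicate number. The grey band, 1.35 to 1.56, is the range over arrays of the background limit from S. pombe probe sets (their 95th percentile). MF(ALPHA)1, STE3 and SAG1 lie lower on all 6 H2B R95A arrays than on all 6 H2B WT arrays, and MF(ALPHA)2 overlaps.

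Between the untreated strains, 4 of the 5 genes had lower mean signals in H2B R95A by 0.62 or more on the log2 scale, MF(ALPHA)2 differed by -0.01, and none passed the test. MF(ALPHA)1, which encodes the major α-factor precursor, had signals of 2.12, 1.90 and 1.92 in replicates 1, 2 and 3 of H2B R95A, against 3.74, 3.11 and 3.20 in H2B WT. All 3 H2B R95A arrays lay below all 3 H2B WT arrays, close to the background of the array. This gave a log2 fold change of -1.37 (SE 0.55, limma adjusted p = 0.733), a 2.58-fold lower mean. MF(ALPHA)2, the minor α-factor gene, had signals of 3.92, 3.56 and 3.78 in H2B R95A and 3.79, 3.87 and 3.63 in H2B WT. Here the groups interleaved, with a log2 fold change of -0.01 (SE 0.22, 95% interval -0.49 to 0.47). The pheromone genes are related in sequence, and cross-hybridisation between their probe sets was not tested.

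STE3, the a-factor receptor gene, had signals of 3.12, 2.85 and 2.93 in untreated H2B R95A, against 3.68, 3.95 and 4.54 in untreated H2B WT. The groups did not overlap, and replicate 3 of H2B WT was the highest. The log2 fold change was -1.09 (SE 0.29, 95% interval -1.73 to -0.45, limma adjusted p = 0.364), a 2.13-fold lower mean. By the limma p only STE3 of the 5 genes met the study's threshold, an unadjusted p no higher than 0.01 together with a change of 2-fold or more, which 0.8% of all probe sets met in the lower direction. By the p of cyber-T, the study's own test, MF(ALPHA)1 met it and STE3 did not, beside 49 of the 5498 probe sets in the lower direction.

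SAG1 encodes the α-agglutinin, the glycoprotein by which α cells adhere to a cells. It had signals of 6.12, 5.59 and 5.99 in untreated H2B R95A, against 6.48, 6.58 and 6.51 in untreated H2B WT. The H2B WT arrays lay close together, and the H2B R95A arrays were all lower and more spread. The difference was -0.62 (SE 0.20, limma adjusted p = 0.730), a 1.54-fold lower mean.

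AFB1, the a-factor barrier gene, had signals of 5.27, 4.32 and 4.18 in untreated H2B R95A, against 5.01, 5.58 and 5.47 in untreated H2B WT. Replicate 1 of H2B R95A stood above the other H2B R95A arrays and above replicate 1 of H2B WT, so the groups overlapped. This gave a log2 fold change of -0.77 (SE 0.33, limma adjusted p = 0.733). It was -1.11 when that H2B R95A array was left out, and without the 4 replicate 1 arrays -1.28 (limma adjusted p = 0.0564).

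Counted together in the untreated strains, 0 of the 5 genes passed the test as lower, where 0.364% of all probe sets did, and cyber-T, the test named in the study's methods, also called 0, where it called 0.473% of all probe sets as lower. At an unadjusted p under 0.05 there were 4 lower genes of 5, with 3.16% of all probe sets lower at that p. In 3 of the 5 genes the arrays did not overlap and H2B R95A was lower, against 4.22% of all probe sets. These 3 genes reached the two-sided exact permutation p of 0.1, the smallest that 3 arrays against 3 can give, while AFB1 had 0.2 and MF(ALPHA)2 0.9. All 5 changes were negative, which holds for 54.8% of all probe sets. The median change of the 5 genes was -0.77, beside -0.04 over all tested probe sets. With replicate 1 of H2B WT with rapamycin left out of the fit, the spread estimated for MF(ALPHA)1 was smaller and its untreated change of -1.37 passed the test (SE 0.23, limma adjusted p = 0.0268), the 1 array whose omission changed a call here.

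With rapamycin the same 4 genes were lower in H2B R95A, and again none passed the test. MF(ALPHA)1 had signals of 2.19, 2.19 and 2.20 in H2B R95A, against 5.59, 2.85 and 3.24 in H2B WT. Replicate 1 of H2B WT was the highest of the 12 arrays for this gene, and the other 5 H2B WT arrays, treated or not, lay between 2.85 and 3.74. The strains differed by -1.70 on the log2 scale (SE 0.55, limma adjusted p = 1.00), and by -0.85 without that array. MF(ALPHA)2 had signals of 3.75, 3.997 and 3.26 in H2B R95A and 3.75, 3.87 and 3.88 in H2B WT. The H2B R95A arrays lay on both sides of the H2B WT arrays, with a log2 fold change of -0.16 (SE 0.22, 95% interval -0.64 to 0.31).

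STE3 with rapamycin had signals of 3.00, 3.43 and 3.67 in H2B R95A, against 3.95, 4.62 and 4.77 in H2B WT. In both strains replicate 1 was the lowest, and the groups did not overlap. The log2 fold change was -1.08 (SE 0.29, 95% interval -1.72 to -0.43, limma adjusted p = 0.585), within 0.02 of the untreated value. SAG1 had signals of 6.43, 5.92 and 5.99 in H2B R95A, against 6.58, 6.74 and 6.64 in H2B WT. Replicate 1 of H2B R95A came close to the H2B WT arrays, and the groups stayed apart. Its difference was -0.54 (SE 0.20, limma adjusted p = 1.00). AFB1 had signals of 4.36, 4.91 and 4.59 in H2B R95A, against 5.06, 5.95 and 5.61 in H2B WT. Its treated groups did not overlap, unlike the untreated ones, and the log2 fold change was -0.92 (SE 0.33, limma adjusted p = 1.00).

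In the treated strains 0 of the 5 genes passed the test as lower, where 0.309% of all probe sets did, and cyber-T also called 0, beside 0.473% of all probe sets in the lower direction. By the limma p STE3 was at the study's threshold, met by 0.582% of all probe sets in the lower direction. With the replicate number as a block in that fit, which the treated arrays bear out as a pairing, MF(ALPHA)1 was at that threshold too. This made 2 genes, beside 43 of the 5498 probe sets in the lower direction. By the cyber-T p MF(ALPHA)1 met it and STE3 did not, beside 44 of the 5498 probe sets in the lower direction. With array quality weights the STE3 change of -1.18 passed the test (limma adjusted p = 0.0236). Those weights called 32 of the 5498 probe sets as lower, against 17 without them. At an unadjusted p under 0.05 there were 4 lower genes, with 1.31% of all probe sets lower. The same number, 4 of 5, had arrays that did not overlap, against 2.75% of all probe sets, and all 5 changes were negative, against 46.1%. The median change was -0.92, beside 0.02 over all tested probe sets. Taken by replicate number, the treated differences of replicates 1, 2 and 3 were -3.39, -0.66 and -1.04 for MF(ALPHA)1, -0.95, -1.18 and -1.10 for STE3, -0.15, -0.82 and -0.65 for SAG1 and -0.69, -1.04 and -1.02 for AFB1. The 4 genes were thus lower in H2B R95A in each of the 3 pairs, with STE3 the most even of them and MF(ALPHA)1 the least. MF(ALPHA)2 differed by 0.13 and -0.62 in replicates 2 and 3 and by less than 0.01 in replicate 1. Left without the 4 replicate 1 arrays, the treated changes were -0.85 for MF(ALPHA)1, -1.14 for STE3, -0.74 for SAG1 and -1.03 for AFB1 (limma adjusted p = 0.219 to 0.532), and the untreated ones -1.25, -1.36, -0.75 and -1.28 in the same order of genes (limma adjusted p = 0.0564 to 0.131).

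**Figure D2:**
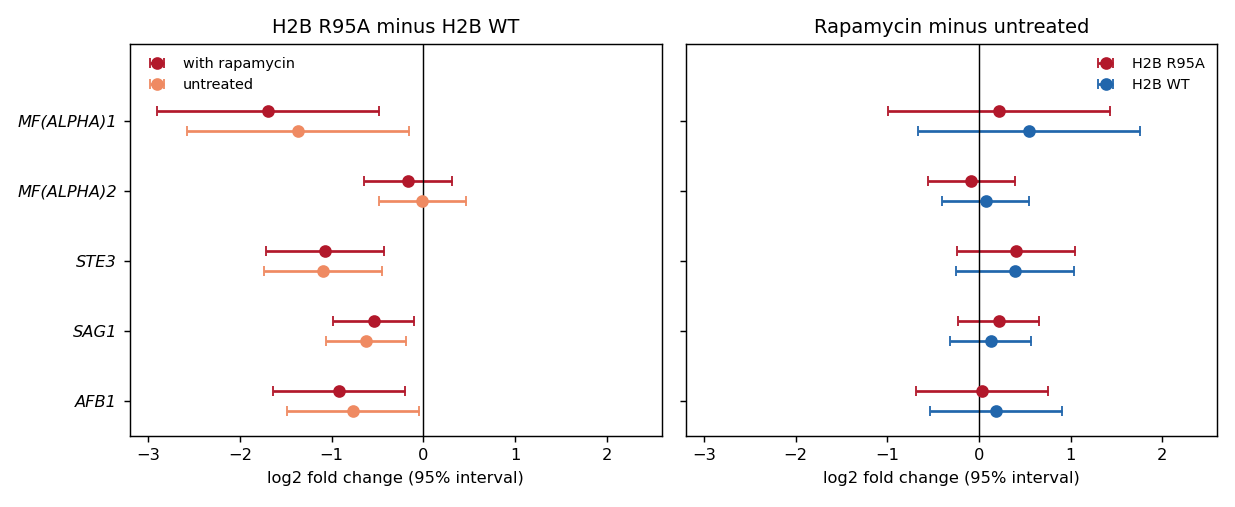
Log2 fold changes (x axis) of the 5 α-specific genes with 95% intervals from the limma fit, for H2B R95A minus H2B WT with rapamycin and untreated on the left and for rapamycin minus untreated in H2B R95A and H2B WT on the right. On the left 4 of the 5 genes have intervals below 0 in both conditions and MF(ALPHA)2 spans 0, and on the right all 10 intervals span 0. The intervals are not adjusted for the number of probe sets tested.

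Taking the strain difference as its mean over both conditions, a contrast chosen after seeing the data, narrowed the errors, and 1 gene passed the test. The fit took the 6 arrays of a strain as separate. Same-numbered H2B WT arrays with and without rapamycin deviated alike (r = 0.84, 0.41 and 0.77 over all tested probe sets), which these errors and p-values do not allow for. STE3 fell by 1.08 on the log2 scale in H2B R95A (SE 0.21, limma adjusted p = 0.0426), with means of 3.17 ± 0.32 in H2B R95A and 4.25 ± 0.45 in H2B WT (SD, n = 6 arrays each). All 6 H2B R95A arrays lay below all 6 H2B WT arrays, but by a narrow margin, 3.67 for the highest of H2B R95A and 3.68 for the lowest of H2B WT. The call ended when any 1 of 9 of the 12 arrays was left out (adjusted p = 0.0668 to 0.147) and held when the array left out was replicate 1 of untreated H2B R95A, of untreated H2B WT or of H2B WT with rapamycin. It also ended with spike-in centring (adjusted p = 0.0868) and with quantile normalization of the yeast probe sets alone (adjusted p = 0.232). Of all probe sets 0.618% passed this test as lower.

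The other 4 genes did not pass it. MF(ALPHA)1 averaged 2.09 ± 0.14 in H2B R95A and 3.62 ± 1.00 in H2B WT (SD, n = 6 each), a log2 fold change of -1.53 (SE 0.39, limma adjusted p = 0.221). Without replicate 1 of H2B WT with rapamycin this change was smaller, -1.11, and passed the test (adjusted p = 0.0129), as it did without the 4 replicate 1 arrays (-1.05, adjusted p = 0.0243) and with spike-in centring (-1.81, adjusted p = 0.0473). It also passed with cyber-T (adjusted p = 0.000633), as did STE3 (adjusted p = 0.0346), where that test called 0.873% of all probe sets as lower. SAG1 averaged 6.01 ± 0.27 in H2B R95A and 6.59 ± 0.09 in H2B WT (SD, n = 6 each), a log2 fold change of -0.58 (SE 0.14, adjusted p = 0.183). AFB1 averaged 4.60 ± 0.41 in H2B R95A and 5.45 ± 0.36 in H2B WT (SD, n = 6 each), a log2 fold change of -0.84 (SE 0.23, adjusted p = 0.296), and it passed without replicate 1 of untreated H2B R95A (-1.01, adjusted p = 0.0479) and without the 4 replicate 1 arrays (-1.15, adjusted p = 0.0151). MF(ALPHA)2 averaged 3.71 ± 0.27 in H2B R95A and 3.80 ± 0.10 in H2B WT (SD, n = 6 each), a difference of -0.09 with a 95% interval of -0.42 to 0.25. For MF(ALPHA)1, STE3 and SAG1, 3 of the 5 genes, no H2B R95A array reached the lowest H2B WT array, a separation that 0.873% of all probe sets showed in this direction.

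**Figure D3:**
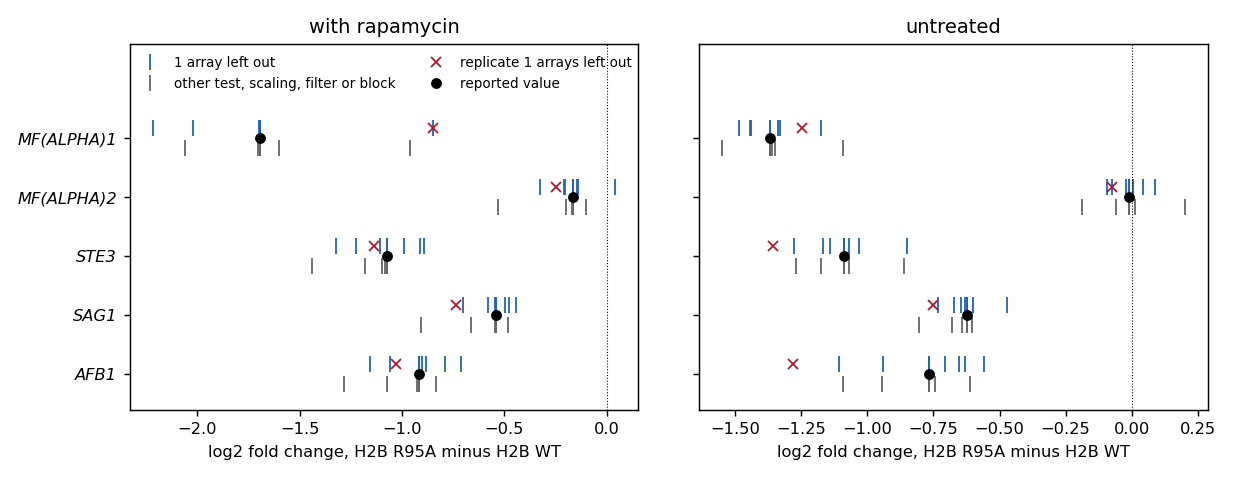
Log2 fold change of H2B R95A minus H2B WT (x axis) for the 5 α-specific genes, with rapamycin on the left and untreated on the right, as reported (dots) and under the alternatives: 1 array left out (blue), another test, scaling, filter or block (grey), and the 4 replicate 1 arrays left out (crosses). MF(ALPHA)1, STE3, SAG1 and AFB1 stay below 0 throughout, and MF(ALPHA)2 crosses 0 in both panels. The panels have different x ranges.

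No α-specific gene passed the test for a response to rapamycin in either strain. In H2B R95A the log2 responses were 0.22 for MF(ALPHA)1, -0.08 for MF(ALPHA)2, 0.41 for STE3, 0.21 for SAG1 and 0.03 for AFB1. In H2B WT they were 0.55 for MF(ALPHA)1, 0.07 for MF(ALPHA)2, 0.39 for STE3, 0.13 for SAG1 and 0.18 for AFB1. The response of MF(ALPHA)1 in H2B WT rested on 1 array: it was -0.30 without replicate 1 of H2B WT with rapamycin. None of these 10 responses passed the limma test, and 0% of all probe sets passed it in either strain. In H2B R95A that share depended on the arrays used: 433 probe sets were lower and 290 higher once replicate 1 of untreated H2B R95A was left out, 397 and 316 without the 4 replicate 1 arrays, 581 and 449 with array quality weights, and 116 and 1 without replicate 3 of untreated H2B WT. None of the 5 genes passed in any of these settings. At an unadjusted p under 0.05 there were 0 of the 5 genes in H2B R95A, where 17.3% of all probe sets were, and 0 in H2B WT, where 4.27% were. Cyber-T called 0 of the 5 genes in either direction, where it called 4.64% of all probe sets for the H2B R95A response and 0.127% for that of H2B WT.

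The treated arrays lay above the untreated ones without overlap for 1 gene in each strain. In H2B R95A this was MF(ALPHA)1, with 2.19 to 2.20 after rapamycin and 1.90 to 2.12 without, against 8.51% of all probe sets higher in that way. In H2B WT it was SAG1, with 6.581 to 6.745 after rapamycin and 6.485 to 6.576 without, against 3.97% of all probe sets. Positive responses were found for 4 of the 5 genes in H2B R95A, against 59.8% of all probe sets, and for 5 of 5 in H2B WT, against 56.3%. The widest 95% interval of a response was that of MF(ALPHA)1 in H2B WT, -0.66 to 1.75, and the STE3 response of 0.41 in H2B R95A had one of -0.24 to 1.05. The responses of the strains differed by -0.33 for MF(ALPHA)1, -0.15 for MF(ALPHA)2, 0.02 for STE3, 0.08 for SAG1 and -0.15 for AFB1, as H2B R95A minus H2B WT. None of these differences passed the test or an unadjusted p under 0.05, which 0% and 0.146% of all probe sets did.

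The order of the 4 groups was the same for 4 of the genes. From the lowest mean up it was H2B R95A untreated, H2B R95A with rapamycin, H2B WT untreated and H2B WT with rapamycin. For SAG1 the means were 5.90 ± 0.27, 6.11 ± 0.28, 6.53 ± 0.05 and 6.66 ± 0.08 in that order (SD, n = 3 each). For AFB1 they were 4.59 ± 0.59, 4.62 ± 0.27, 5.35 ± 0.31 and 5.54 ± 0.45. For STE3 they were 2.96 ± 0.14, 3.37 ± 0.34, 4.05 ± 0.44 and 4.45 ± 0.44. For MF(ALPHA)1 they were 1.98 ± 0.12, 2.20 ± 0.01, 3.35 ± 0.34 and 3.89 ± 1.48. In each gene the widest gap of means lay between the strains. The limma test separated neither the strains, in either condition, nor the same strain with and without rapamycin. For rapamycin it called 0% of all probe sets in either strain. MF(ALPHA)2 had a different order and a range of means of only 3.67 ± 0.38 in H2B R95A with rapamycin to 3.83 ± 0.07 in H2B WT with rapamycin, within the spread between arrays.

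The 5 genes did not vary as 1 block over the arrays. Over the 12 arrays, which share their 4 groups, Pearson's r was 0.85 between STE3 and AFB1, 0.76 between STE3 and SAG1 and 0.73 between SAG1 and AFB1. MF(ALPHA)1 had r of 0.40 to 0.64 with these 3 genes, and MF(ALPHA)2 had r of 0.11 to 0.42 with the other 4. Once the group means were removed, STE3 and AFB1 kept an r of 0.62, SAG1 and STE3 had -0.08, and MF(ALPHA)1 ran opposite to STE3 with -0.63. These are descriptions over 12 arrays, and in H2B WT the replicate 1 arrays were the highest of their group for MF(ALPHA)1 and the lowest for STE3.

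The probe sets with the most similar pattern over the 12 arrays included genes of the a-specific and haploid-specific sets. For STE3 they were GAL10, an enzyme of galactose use (r = 0.97), ASG7, an a-specific gene (0.95), and RME1, the haploid repressor of meiosis (0.95). For SAG1 they were MMF1, a mitochondrial protein (0.94), VBA2, a vacuolar amino acid permease (0.94), and STE5, the scaffold of the pheromone kinase cascade (0.93). For AFB1 they were YGR109W-A (0.93) and YIL082W-A (0.90), both Ty3 reading frames, and FUS1, a membrane protein of cell fusion (0.89). ASG7, RME1 and STE5 were themselves lower past the test in untreated H2B R95A (-3.87, -2.31 and -2.18 on the log2 scale). MF(ALPHA)1 was nearest to TEP1 (0.86), RDH54, a haploid-specific DNA translocase (0.83), and YIL014C-A (0.82). MF(ALPHA)2 was nearest to ARG4, an enzyme of arginine synthesis (0.86), GPI16, a subunit of the GPI transamidase (0.86), and PRC1, carboxypeptidase Y (0.77), none of which differed by more than 0.08 on the log2 scale between the untreated strains. With group means removed, the nearest probe sets were PEP7 for MF(ALPHA)1 (0.93), ARG4 for MF(ALPHA)2 (0.87), TMC1 for STE3 (0.99), ECM25 for SAG1 (0.91) and PDE1 for AFB1 (0.94).

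Other mating genes were also lower in H2B R95A. The 7 a-specific genes, which a cells express, had a median log2 fold change of -4.07 with rapamycin and -4.41 untreated, and 6 of 7 passed the test as lower in each condition, all except BAR1, the protease that degrades α-factor (-4.44 and -4.84, adjusted p = 0.112 and 0.0517 from limma). MFA2 had the largest change of this list, -5.16 with rapamycin and -5.56 untreated. The untreated changes of the a-specific genes ran from -5.56 to -3.39 and those of the α-specific genes from -1.37 to -0.01. On the untreated H2B WT arrays MF(ALPHA)1 lay 1.64 to 2.36 above the 95th percentile limit from S. pombe probe sets on the log2 scale. MF(ALPHA)2 lay 2.22 to 2.42 above it and STE3 2.30 to 3.13. A fall in the range of the a-specific genes would have taken these 3 genes below that limit. SAG1 lay 5.105 to 5.109 above it and AFB1 3.63 to 4.11, and their untreated changes were -0.62 and -0.77. A fall as large as the a-specific median, -4.41, would have taken AFB1 below the limit too. One as large as that of MFA2, -5.56, would have taken SAG1 below it. Of the 13 haploid-specific genes, which serve pheromone signalling and other haploid functions, 9 passed as lower with rapamycin and 10 untreated, with medians of -1.95 and -2.31. FUS3, the mating kinase, had the largest change untreated (-3.54) and NEJ1, a factor of DNA end joining, with rapamycin (-3.14). STE2, the a cell counterpart of STE3 and receptor for α-factor, had changes of -4.15 and -4.41, both past the test (limma adjusted p = 0.00320 and 0.00107). The mean signal of the 7 a-specific genes was 4.42 to 5.51 over the H2B R95A arrays and 8.25 to 10.13 over the H2B WT arrays, and that of the 5 α-specific genes was 3.64 to 4.11 over the H2B R95A arrays and 4.54 to 4.99 over the H2B WT arrays. The part of the one difference in the other was not tested.

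**Figure D4:**
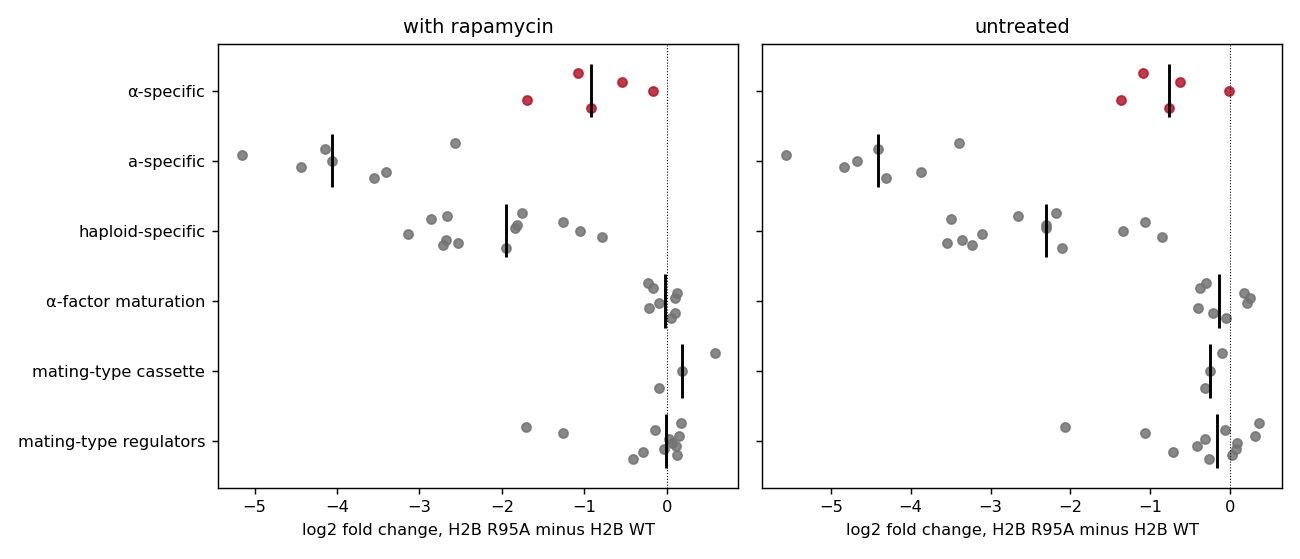
Log2 fold changes of H2B R95A minus H2B WT (x axis), with rapamycin on the left and untreated on the right, for the genes of 6 lists (1 dot a gene, bar at the median, α-specific genes in red). The α-specific medians are -0.92 and -0.77, those of the a-specific genes -4.07 and -4.41 and those of the haploid-specific genes -1.95 and -2.31, and the other 3 medians lie between -0.25 and 0.18.

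None of the listed regulators of the α-specific genes passed the test. Of 8 mating-type cassette genes 3 had a tested probe set. HMLALPHA1, the gene of the α1 activator, had signals of 2.82, 2.78 and 3.00 in H2B R95A with rapamycin, against 2.73, 2.66 and 3.50 in H2B WT with rapamycin. Without rapamycin it had 3.72, 2.14 and 2.59 in H2B R95A, against 2.49, 3.07 and 3.82 in H2B WT. These groups overlapped in both conditions, with changes of -0.10 and -0.31 that did not pass the test. HMLALPHA1 was dim, with 2.14 to 3.82 over the 12 arrays beside the S. pombe 95th percentile limit of 1.35 to 1.56. HMRA1 and HMRA2, the a1 and a2 genes at the silent HMR locus, differed by 0.18 and 0.58 with rapamycin and by -0.25 and -0.11 untreated, none past the test. For HMRA2 with rapamycin the H2B R95A arrays (8.91 to 9.45) lay above the H2B WT arrays (8.39 to 8.70) without overlap, against 1.64% of all probe sets. Since the silent copies and those at MAT are alike in sequence, a probe set cannot assign their RNA to a locus. Whether the HMRA2 probe set also detects α2 RNA was not tested.

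Among 12 transcription regulators of mating type, 0 passed the test in either condition, with median changes of -0.01 with rapamycin and -0.16 untreated. Mcm1 acts with α1 at α-specific promoters, and its gene MCM1 had changes of 0.11 and -0.41 (adjusted p = 1.00 and 0.733 from limma). The largest differences of that list were those of TEC1, a filamentation factor (-1.71 and -2.07), and STE12, the pheromone response factor (-1.26 and -1.06). The 11 silencing genes of HML and HMR had medians of 0.01 and 0.06 and no calls, and their largest difference was SIR2, the histone deacetylase (-0.90 and -0.84, adjusted p = 1.00 and 0.733). Of the 6 genes of a/α diploid or meiotic cells, IME4, an mRNA methyltransferase needed for meiosis, rose by 2.75 with rapamycin and 2.32 untreated (adjusted p = 0.00361 and 0.00892 from limma), and the other 5 did not pass.

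No gene of the machinery that would process the 5 products passed the test either. The 8 genes of α-factor maturation had median changes of -0.03 with rapamycin and -0.14 untreated. KEX2, the protease that cuts the α-factor precursor, had changes of -0.22 and -0.40, and STE13, the aminopeptidase that trims it, -0.17 and -0.38. The 10 genes of receptor turnover and GPI attachment, which deal with Ste3 and with the anchor of α-agglutinin, had medians of 0.08 and 0.14. The largest difference in that list, 0.21 and 1.20, was that of GAS1, a GPI-anchored enzyme of the cell wall (adjusted p = 1.00 and 0.733 from limma).

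None of the genes beside the 5 on their chromosomes passed the test. Of 10 adjacent genes 8 had a tested probe set. Their changes ran from -0.28 to 0.10 with rapamycin and from -0.82 to 0.45 untreated. The lowest untreated value, -0.82, was that of UIP4 next to MF(ALPHA)1, with an adjusted p of 0.733 from limma. Both neighbours of STE3, COY1 and LST4, had changes of 0.05 and -0.26 with rapamycin and -0.25 and -0.30 untreated. No adjacent gene overlapped a member in the annotation.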

How the data were processed

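Total RNA of 12 samples was hybridised in 1 colour to Affymetrix Yeast Genome 2.0 arrays. The authors applied RMA, and the deposited values are log2 signals per probe set, background corrected and quantile normalized, so levels are relative to the whole array. Scans were not read here. All 12 columns were mapped to samples through their labels and 0 were left over. Of 10928 probe sets, 5498 annotated with 1 S. cerevisiae gene (5449 genes) were tested, and 1746 S. pombe, 3517 unlisted and 166 control probe sets and 1 with several genes were left out. Array medians lay between 7.25 and 7.30. Probe sets were named from the platform annotation, with neighbours from RefSeq genes (assembly R64).

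R 4.3.3 and limma 3.58.1 fitted a mean per group with a variance trend and no block, and p-values were adjusted by Benjamini-Hochberg over the tested probe sets. Exact permutation tests were two-sided. The fit was tested on simulated data with independent noise and no effect of the replicate number, unlike these arrays. The text names the 5 genes, the 3 most correlated probe sets of each over the arrays (1 with group means removed), cassette genes and the 2 largest changes of other lists. MCM1, STE2 and the adjacent genes were named after their values were seen. Members and lists were chosen with earlier results of these data known. Alternatives were cyber-T (window 101, confidence 10), no trend, array weights, 3 scalings, a filter on dim probe sets, only the arrays compared, a replicate block, the study's threshold, each array left out and, chosen after seeing the data, the replicate 1 arrays left out and the mean over conditions.

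Replicate numbers were checked as pairs by the correlation of deviations from the group means over the tested probe sets. For numbers 1, 2 and 3 this r was 0.88, 0.78 and 0.74 comparing strains under rapamycin and 0.84, 0.41 and 0.77 comparing agents in H2B WT, where the numbers were taken to pair. It was 0.57, 0.83 and 0.06 comparing strains without rapamycin and 0.42, 0.48 and 0.01 comparing agents in H2B R95A, where they were not. The labels do not say what the numbers stand for.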

Additional observations from a re-analysis of the deposited data

How the results depend on the processing

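The strain differences of MF(ALPHA)1, STE3, SAG1 and AFB1 were negative in 22 of 22 alternatives in both conditions. Not all of these could have changed the sign. Cyber-T, no trend, the dim filter, the compared arrays alone, the block and omitted arrays of other groups altered only the error. No gene passed the test in either strain comparison, except that 1 did between the untreated strains without replicate 1 of H2B WT with rapamycin (MF(ALPHA)1; counts of 0 to 1 over the arrays left out), 1 did with rapamycin under array quality weights (STE3), and 1 met the study's threshold in each (STE3). Under cyber-T the gene at that threshold was MF(ALPHA)1 in both. Untreated, STE3 also missed it with spike-in centring and with quantile normalization of the yeast probe sets alone. It missed it too without replicate 2 or 3 of untreated H2B R95A or replicate 3 of untreated H2B WT. With rapamycin STE3 missed it with that quantile normalization and without replicate 1 of H2B R95A or replicate 2 or 3 of H2B WT. Without the 4 replicate 1 arrays, chosen after seeing the data, 2 genes (STE3 and AFB1) met it with rapamycin and 3 (those and MF(ALPHA)1) untreated. There 50 and 164 of the 5498 probe sets met it in the lower direction, against 32 and 44 in the main setting. Genes above background were 5 in the main setting and 1 against the unlisted probe sets. With the replicate number as a block 0 genes passed the test in each of the 5 comparisons; the adjusted p of STE3 was 0.126 with rapamycin and 0.107 untreated, and over both conditions 0.0105. The block changed no call of the test.

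Centring on the spike-ins shifted the overall median by more than 0.1, to -0.35 between the treated strains and -0.22 between the untreated ones, and carried MF(ALPHA)2 to -0.53 and -0.19. For MF(ALPHA)2 the untreated difference was 0.012 with median centring and 0.20 with quantile normalization of the yeast probe sets alone, the mean over conditions was 0.049 with the last of these, and leaving out arrays gave -0.33 to 0.042 with rapamycin, -0.092 to 0.086 untreated and -0.17 to 0.016 for the mean. The H2B R95A response under spike-in centring was -0.0058 for MF(ALPHA)1, -0.011 for SAG1 and -0.19 for AFB1, which was -0.014 with quantile normalization; leaving out arrays gave -0.17 to 0.37 for AFB1 and -0.25 to 0.12 for MF(ALPHA)2. In H2B WT the MF(ALPHA)1 response was -0.13 with array weights, -0.11 without the replicate 1 arrays and -0.30 to 1.07 over the arrays left out, and that of AFB1 -0.021 to 0.42. The difference of responses was 0.40 for MF(ALPHA)1 with array weights and 0.40 without the replicate 1 arrays (-0.85 to 0.52 over the arrays left out). For STE3 it was -0.0061 with array weights, -0.013 with median centring, -0.17 with spike-in centring and -0.24 with quantile normalization (-0.23 to 0.20). For SAG1 it was -0.10 with spike-in centring (-0.076 to 0.19), for AFB1 0.019 with array weights and 0.25 without the replicate 1 arrays (-0.39 to 0.19), and for MF(ALPHA)2 -0.32 to 0.051 over the arrays left out. The cause was not tested. In the mean over conditions the count of genes past the test was 1, and 0 to 2 over the arrays left out. It was 0 with quantile normalization, 2 with cyber-T, 3 with array weights (STE3, SAG1 and AFB1) and 3 without the replicate 1 arrays. Array weights called 79 of the 5498 probe sets as lower and omission of the replicate 1 arrays 55, against 34 in the main setting. Cyber-T called 48 and quantile normalization 28. The study's threshold was met by 2 genes, among 47 probe sets with a negative change.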
